A study of Mus musculus with 34 samples.

Results

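The 33 genes described here are markers of astrocytes, measured as transcripts in the cerebral cortex of mice aged 15 weeks. They were chosen by name from knowledge of the cell type, and each was read from 1 probe set, the one with the highest mean over all arrays among those that the platform annotation gives to that gene alone. All 33 were found among 18193 genes with a single symbol and 45037 probe sets. By their known roles 29 form a homeostatic group, the genes that resting astrocytes use, and 4 a reactive group (Gfap, Vim, Serpina3n and Lcn2), the genes that rise in injured or diseased tissue. No level from these arrays entered the choice of the genes, although earlier results of the series were known when it was made.

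Cortex came from the offspring of R6/2 males, which are hemizygous for a transgene that expresses exon 1 of mutant HTT, and females with 1 null Hdac4 allele. WT mice carried neither mutation (n = 8), Hdac4HET mice the null allele alone (n = 8), R6/2 mice the transgene alone (n = 9), and Dble::R6/2 mice both (n = 9). All were on a mixed CBA and C57Bl/6 background, and Hdac4 was reduced in the whole animal, not in astrocytes alone. The null allele was made in a different strain, and the authors state that DNA of that strain remains linked to it. They found no effect of this linked DNA on aggregate load in R6/2 cortex. In the transcript levels of Hdac4HET and Dble::R6/2 mice the allele and the linked DNA cannot be told apart. Each array is 1 sample of a genotype, and males and females were pooled. Values are log2 expression levels, so a difference of 1 is a 2-fold difference. A gene was called when limma's 2-sided test, with Benjamini-Hochberg adjustment over all 45037 probe sets, gave an adjusted p of 0.05 or less.

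Astrocytes clear glutamate and GABA from synapses, buffer potassium and water, couple to each other through gap junctions, and feed neurons from glycogen and lactate. In disease they can become reactive, a state marked by more intermediate filament protein, such as that of Gfap and Vim, and by secreted acute-phase proteins. In whole cortex, fewer cells of a type and less RNA per cell cannot be told apart.

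Array medians lay between 5.44 and 5.52, arrays of a genotype correlated at 0.973 or above, and the number of arrays limits the precision of every value. The brightest probe set of the targeted gene, Hdac4, read 8.06 ± 0.13 in WT and 7.58 ± 0.10 in Hdac4HET (SD, n = 8 each, adjusted p = 0.0036). Dble::R6/2 read 7.58 ± 0.14 against 7.91 ± 0.19 in R6/2 (SD, n = 9 each, adjusted p = 0.691), while the second probe set was called lower in Dble::R6/2, by -0.61 (65.5% of R6/2, adjusted p = 3.3e-04), and the dimmest differed by -0.08 (adjusted p = 0.945). Whether the probes lie within the deletion is not known here. On 15 of the 34 arrays the level of Xist, which only female cells express, went against the labelled sex (5 WT, 5 Hdac4HET, 1 R6/2 and 4 Dble::R6/2). Whether the sex labels or the match of arrays to mice are at fault cannot be told apart here, which bears on the genotype labels too, and groups were kept as labelled. Prl, the pituitary hormone prolactin, exceeded a log2 value of 8 on WT replicates 2, 6 and 7 and on Hdac4HET replicate 1. The mean log2 level of 8 epidermal markers was 6.39 on R6/2 replicate 2 and 5.30 or less on every other array. The summed log2 level of choroid plexus markers was above 12 on Hdac4HET replicate 1, R6/2 replicate 3 and Dble::R6/2 replicates 2, 4, 5, 8 and 9. Counts are therefore also given without these arrays. Neuron markers, which define the tissue, were measured in 10 of 10, with a mean log2 level between 11.4 and 12.0 on every array.

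The first question was how the astrocyte genes differed between R6/2 and WT cortex. Homeostatic and reactive genes moved in opposite directions. Of the 29 homeostatic genes 20 fell, 1 rose (Cbs) and 8 were not called, with a median log2 change of -0.52. Of the 4 reactive genes 3 rose and Lcn2 was not called, with a median of 0.59. Gfap was called on its brightest probe set alone, and its other probe sets read -0.09 and -0.27. The median over all 18193 genes was 0.02. In this comparison 26.9% of all probe sets were called, and with 1 probe set per gene 20.2% of genes were called higher and 11.8% lower. On 11 homeostatic genes every R6/2 array lay below every WT array, against 3.81% of all genes, and on 2 reactive genes every R6/2 array lay above every WT array, against 6.31% of all genes.

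**Figure D1:**
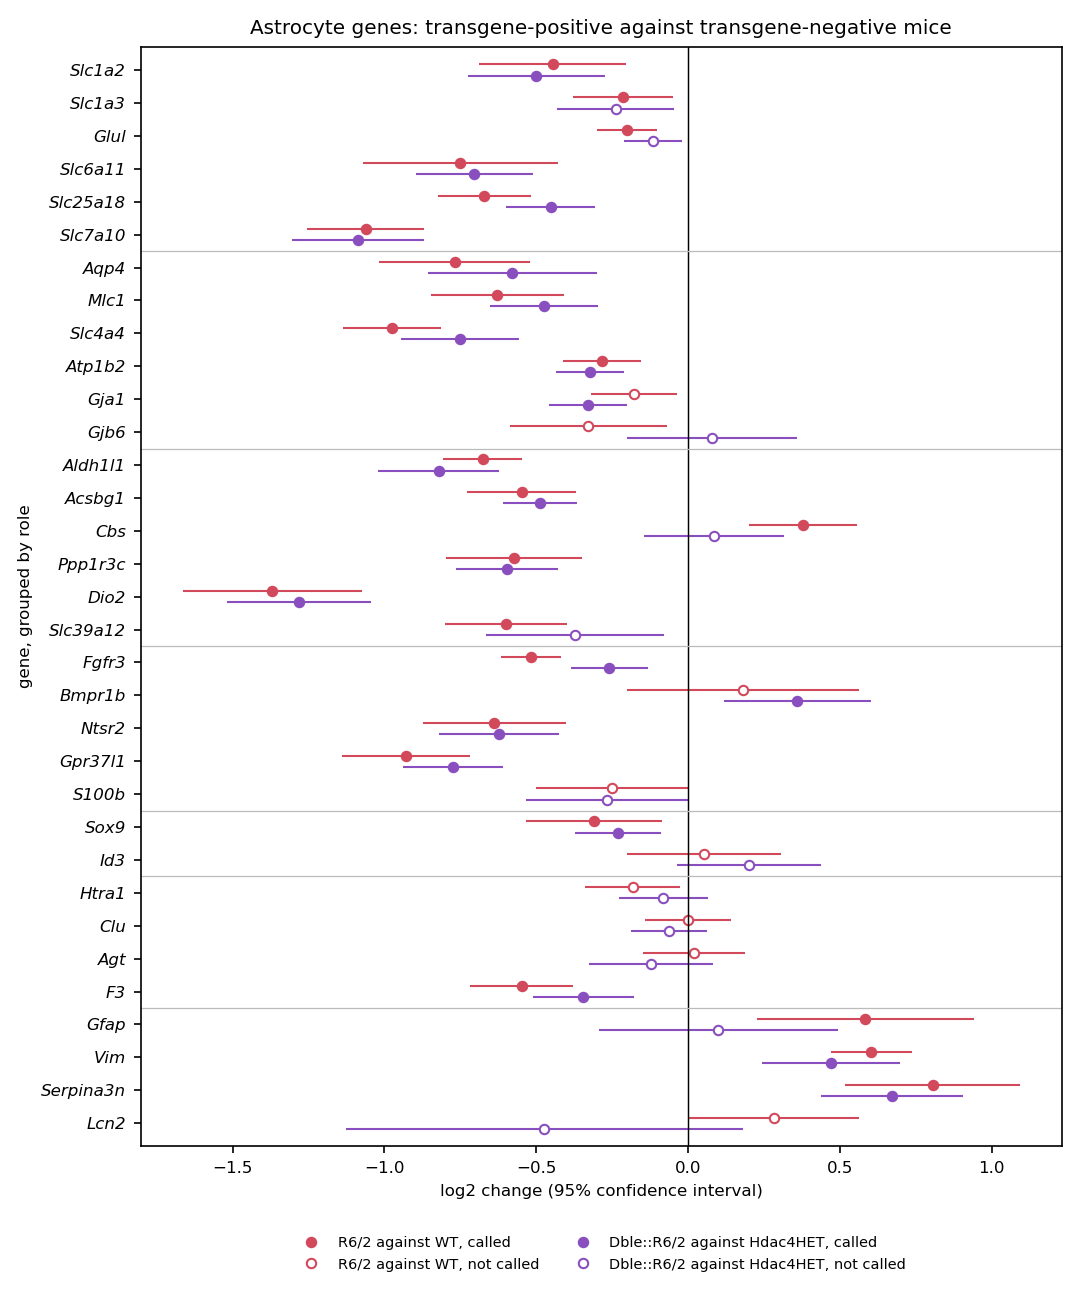
Log2 change of the 33 astrocyte genes (x axis) with 95% confidence intervals, for R6/2 against WT (red, n = 9 and 8) and Dble::R6/2 against Hdac4HET (purple, n = 9 and 8). Filled points were called at an adjusted p of 0.05 or less, grey lines separate the roles, and 17 genes were called lower in both comparisons while Vim and Serpina3n were called higher in both.

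All 6 genes for the uptake and recycling of glutamate, GABA and other amino acids fell. Slc1a2 encodes GLT-1, the main glutamate transporter of the forebrain. Its lowest, median and highest log2 levels were 12.58, 12.84 and 13.05 in WT, 12.68, 12.83 and 13.12 in Hdac4HET, 11.64, 12.47 and 12.72 in R6/2, and 11.78, 12.36 and 12.77 in Dble::R6/2. The lowest array was R6/2 replicate 2, and 2 of the 9 R6/2 arrays reached the WT range. The change from WT to R6/2 was -0.45 ± 0.12 (SE, adjusted p = 0.00687), which left 73.4% of the WT level.

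Slc7a10 encodes Asc-1, a transporter of small neutral amino acids such as D-serine and glycine. It read 7.78, 7.99 and 8.09 in WT and 7.93, 8.06 and 8.24 in Hdac4HET, against 6.64, 6.85 and 7.46 in R6/2 and 6.47, 7.05 and 7.36 in Dble::R6/2. The 18 arrays with the transgene and the 16 without it did not overlap, and R6/2 against WT differed by -1.06 ± 0.09 (SE, adjusted p = 1.26e-07), or 47.9% of WT. Slc6a11, the GABA transporter GAT-3, fell by 0.75, and Slc25a18, a mitochondrial glutamate carrier, fell by 0.67, both without overlap between R6/2 and WT. Glul, glutamine synthetase, which turns glutamate into glutamine, fell by 0.20 (adjusted p = 0.00304), also without overlap, from 12.77 ± 0.06 (SD, n = 8) to 12.57 ± 0.08 (SD, n = 9). Slc1a3, the glutamate transporter GLAST, fell by 0.21 at an adjusted p of 0.0492, and this call was lost when any 1 of 13 of the 17 arrays was left out. That probe set is one whose probes can match other transcripts, and the second brightest Slc1a3 probe set fell by 0.73 (adjusted p = 3.79e-07).

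Among the 6 genes of water, ions and junctions 4 fell, and the 2 connexins were not called on their brightest probe sets. Slc4a4, the sodium bicarbonate cotransporter NBCe1, read 9.43, 9.72 and 9.81 in WT, 9.08, 9.36 and 9.50 in Hdac4HET, 8.29, 8.75 and 8.88 in R6/2 and 8.12, 8.62 and 9.03 in Dble::R6/2. Each array with the transgene lay below each array without it. The R6/2 change was -0.97 ± 0.08 (SE, adjusted p = 4.22e-08), which left 50.9% of WT. Of the dimmer Slc4a4 probe sets the third brightest fell by 1.09 (adjusted p = 1.48e-04). The others differed by -0.36, -0.14 and 0.07 and were not called.

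Aqp4, the water channel of the astrocyte end-feet, read 9.27, 9.81 and 10.01 in WT, 9.29, 9.51 and 9.76 in Hdac4HET, 8.62, 8.94 and 9.35 in R6/2 and 8.36, 8.91 and 9.70 in Dble::R6/2. WT replicates 2 and 8 were the low WT arrays, and 1 R6/2 array, replicate 6, reached their range. Aqp4 fell by 0.77 ± 0.12 (SE, adjusted p = 7.64e-05). Mlc1, a membrane protein of the end-feet, fell by 0.63 without overlap, and Atp1b2, a beta subunit of the sodium and potassium pump, fell by 0.28.

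The connexins Gja1 (connexin 43) and Gjb6 (connexin 30) form the gap junctions between astrocytes. Gja1 differed by -0.18 (95% interval -0.32 to -0.04) and Gjb6 by -0.33 (-0.59 to -0.07), each at an adjusted p of 0.0563. Leaving out a single array brought Gja1 past the threshold in 3 of 17 cases and Gjb6 in 4 of 17. On the second brightest Gja1 probe set the fall was 0.66 (adjusted p = 2.54e-05), and 3 of the 5 further Gja1 probe sets were called lower. Gjb6 has 1 probe set.

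Of the 6 metabolic genes 5 fell and 1 rose. Dio2, the deiodinase that turns thyroxine into active thyroid hormone, had the largest fall of the 33 genes. Its levels were 8.89, 9.17 and 9.55 in WT and 8.94, 9.13 and 9.63 in Hdac4HET, but 7.18, 7.77 and 8.50 in R6/2 and 7.57, 7.84 and 8.26 in Dble::R6/2. The arrays with and without the transgene did not overlap. The R6/2 change was -1.37 ± 0.14 (SE, adjusted p = 9.78e-07), which left 38.7% of WT, and only 0.225% of all genes had as low a change or a lower one.

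The promoter windows below are those of the homeostatic gene with the largest fall and the reactive gene with the largest rise. Each holds the 250 bases before the start of the gene in RefSeq, GRCm38.p6, 5′ to 3′ on the strand of the gene. Dio2 lies on the minus strand at chr12:90739039-90739288 and Serpina3n on the plus strand at chr12:104406458-104406707.
Dio2: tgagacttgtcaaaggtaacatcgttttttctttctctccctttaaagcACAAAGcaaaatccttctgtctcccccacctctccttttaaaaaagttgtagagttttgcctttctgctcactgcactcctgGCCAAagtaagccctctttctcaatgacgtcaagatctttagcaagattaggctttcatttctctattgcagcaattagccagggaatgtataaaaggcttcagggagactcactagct
Serpina3n: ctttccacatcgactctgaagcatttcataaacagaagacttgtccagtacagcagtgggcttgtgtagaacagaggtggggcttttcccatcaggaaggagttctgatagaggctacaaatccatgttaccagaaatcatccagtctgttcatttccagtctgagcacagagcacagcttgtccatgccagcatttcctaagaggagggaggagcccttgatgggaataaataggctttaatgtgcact
Capitals mark the motifs searched on both strands: TTCNNNGAA, a STAT3-type motif, TTGGC, bound by NFI factors, and ACAAAG, a SOX-type motif. The Dio2 window held ACAAAG from 201 to 196 bases before the start, and TTGGC on the other strand, read here as GCCAA, from 119 to 115 bases before it, and the Serpina3n window held none of the 3 motifs. The motifs do not overlap there. Promoters were given for 29 of the 33 genes (25 homeostatic and 4 reactive). Those of 4 homeostatic and 0 reactive genes held TTCNNNGAA (7.02% of 32851 windows of all genes), 13 and 2 held TTGGC (41.5%), and 2 and 0 held ACAAAG (16.5%). A match of letters is a description and not a bound site.

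Aldh1l1, an enzyme of folate metabolism and a broad astrocyte marker, read 8.94, 9.07 and 9.20 in WT, 8.91, 9.18 and 9.62 in Hdac4HET, 8.18, 8.46 and 8.56 in R6/2 and 8.20, 8.35 and 8.81 in Dble::R6/2. Arrays with and without the transgene were fully apart, and it fell by 0.68 ± 0.06 (SE, adjusted p = 2.51e-07) in R6/2. Slc39a12, a zinc transporter, fell by 0.60, Ppp1r3c, a glycogen-targeting subunit of protein phosphatase 1, by 0.57, and Acsbg1, an acyl-CoA synthetase, by 0.55. Between 1 and 2 R6/2 arrays reached the WT range on each of these. Cbs, the enzyme that makes cystathionine from homocysteine, rose by 0.38 ± 0.08 (SE, adjusted p = 0.00229), the single homeostatic gene called higher, with 3 R6/2 arrays within the WT range. The other Cbs probe set differed by 0.07 and was not called (adjusted p = 0.574).

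Among receptors and signalling proteins 3 of 5 fell. Gpr37l1, an orphan receptor of astrocytes, read 9.94, 10.41 and 10.60 in WT, 9.99, 10.22 and 10.40 in Hdac4HET, 8.96, 9.54 and 9.73 in R6/2 and 9.11, 9.45 and 9.72 in Dble::R6/2. It fell by 0.93 ± 0.10 (SE, adjusted p = 1.73e-06), with no overlap between arrays with and without the transgene. Fgfr3, a receptor for fibroblast growth factors, had the narrowest spread of the 33 genes within R6/2 (9.42 ± 0.06, SD, n = 9) and fell by 0.52 ± 0.05 (SE, adjusted p = 2.56e-07) from 9.94 ± 0.08 (SD, n = 8), also without overlap. Ntsr2, a neurotensin receptor, fell by 0.64.

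S100b, a calcium-binding protein, differed by -0.25 (adjusted p = 0.144) and Bmpr1b, a receptor for bone morphogenetic proteins, by 0.18 (adjusted p = 0.537). S100b was called without R6/2 replicate 2, where it had the highest R6/2 level, and its second probe set, of nearly the same brightness, fell by 0.33 (adjusted p = 0.00221). Of the regulators of transcription, Sox9 fell by 0.31 (adjusted p = 0.0376), a call lost when any 1 of 7 of the 17 arrays was left out, and Id3 differed by 0.05 (95% interval -0.20 to 0.31).

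Of the 4 genes for secreted and coagulation proteins 1 fell, F3, tissue factor, by 0.55 ± 0.08 (SE, adjusted p = 5.35e-05) and without overlap. Clu, the chaperone clusterin, differed by 0.00 (95% interval -0.14 to 0.14), and its level was 12.35 ± 0.11 in WT (SD, n = 8) and 12.35 ± 0.15 in R6/2 (SD, n = 9). Agt, angiotensinogen, differed by 0.02 (-0.15 to 0.19), and Htra1, a secreted serine protease, by -0.18 (-0.34 to -0.03, adjusted p = 0.0803). Of the 3 further Clu probe sets the dimmest fell by 0.27 (adjusted p = 0.00266) and the others were not called.

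The reactive genes were led by Serpina3n, a secreted inhibitor of serine proteases. It read 5.27, 5.80 and 5.89 in WT, 5.23, 5.57 and 5.84 in Hdac4HET, 5.89, 6.55 and 7.04 in R6/2 and 5.63, 6.23 and 6.68 in Dble::R6/2. The highest WT array and the lowest R6/2 array, replicate 4, were both near 5.89 but did not overlap. Serpina3n rose by 0.81 ± 0.14 (SE, adjusted p = 2.13e-04), to 175% of WT.

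Vim encodes vimentin, an intermediate filament of reactive astrocytes that endothelial and mural cells also make. Its levels were 8.14, 8.32 and 8.50 in WT, 8.06, 8.31 and 8.79 in Hdac4HET, 8.76, 8.92 and 9.10 in R6/2 and 8.66, 8.80 and 9.17 in Dble::R6/2. All R6/2 arrays lay above all WT arrays, and Vim rose by 0.60 ± 0.06 (SE, adjusted p = 1.28e-06).

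Gfap, the filament protein that defines reactive astrocytes in tissue sections, read 6.07, 6.67 and 6.90 in WT, 6.70, 6.92 and 7.47 in Hdac4HET, 6.46, 7.04 and 7.96 in R6/2 and 6.31, 7.11 and 8.04 in Dble::R6/2. The highest R6/2 and Dble::R6/2 arrays were replicate 2 of each, and 2 R6/2 arrays lay within the WT range. Gfap rose by 0.58 ± 0.17 on this probe set (SE, adjusted p = 0.0149). Its other 2 probe sets read -0.09 and -0.27 and were not called (adjusted p = 0.744 and 0.692), and the mean of all 3 differed by 0.07 (adjusted p = 0.834). Without the arrays whose Xist went against the label the change was 0.25 (adjusted p = 0.368).

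Lcn2, lipocalin 2, an acute-phase protein, read 2.79, 3.08 and 3.29 in WT, 2.94, 3.38 and 6.12 in Hdac4HET, 2.84, 3.46 and 4.03 in R6/2 and 2.75, 3.14 and 3.33 in Dble::R6/2. Hdac4HET replicate 1, which was also high in Prl, stood far above all other arrays. Lcn2 differed by 0.28 between R6/2 and WT (95% interval 0.00 to 0.56, adjusted p = 0.138). Its mean over all arrays was low, 3.28, and 14.85% of all probe sets had as low a mean or a lower one. The lack of a call therefore does not show that Lcn2 was unchanged.

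**Figure D2:**
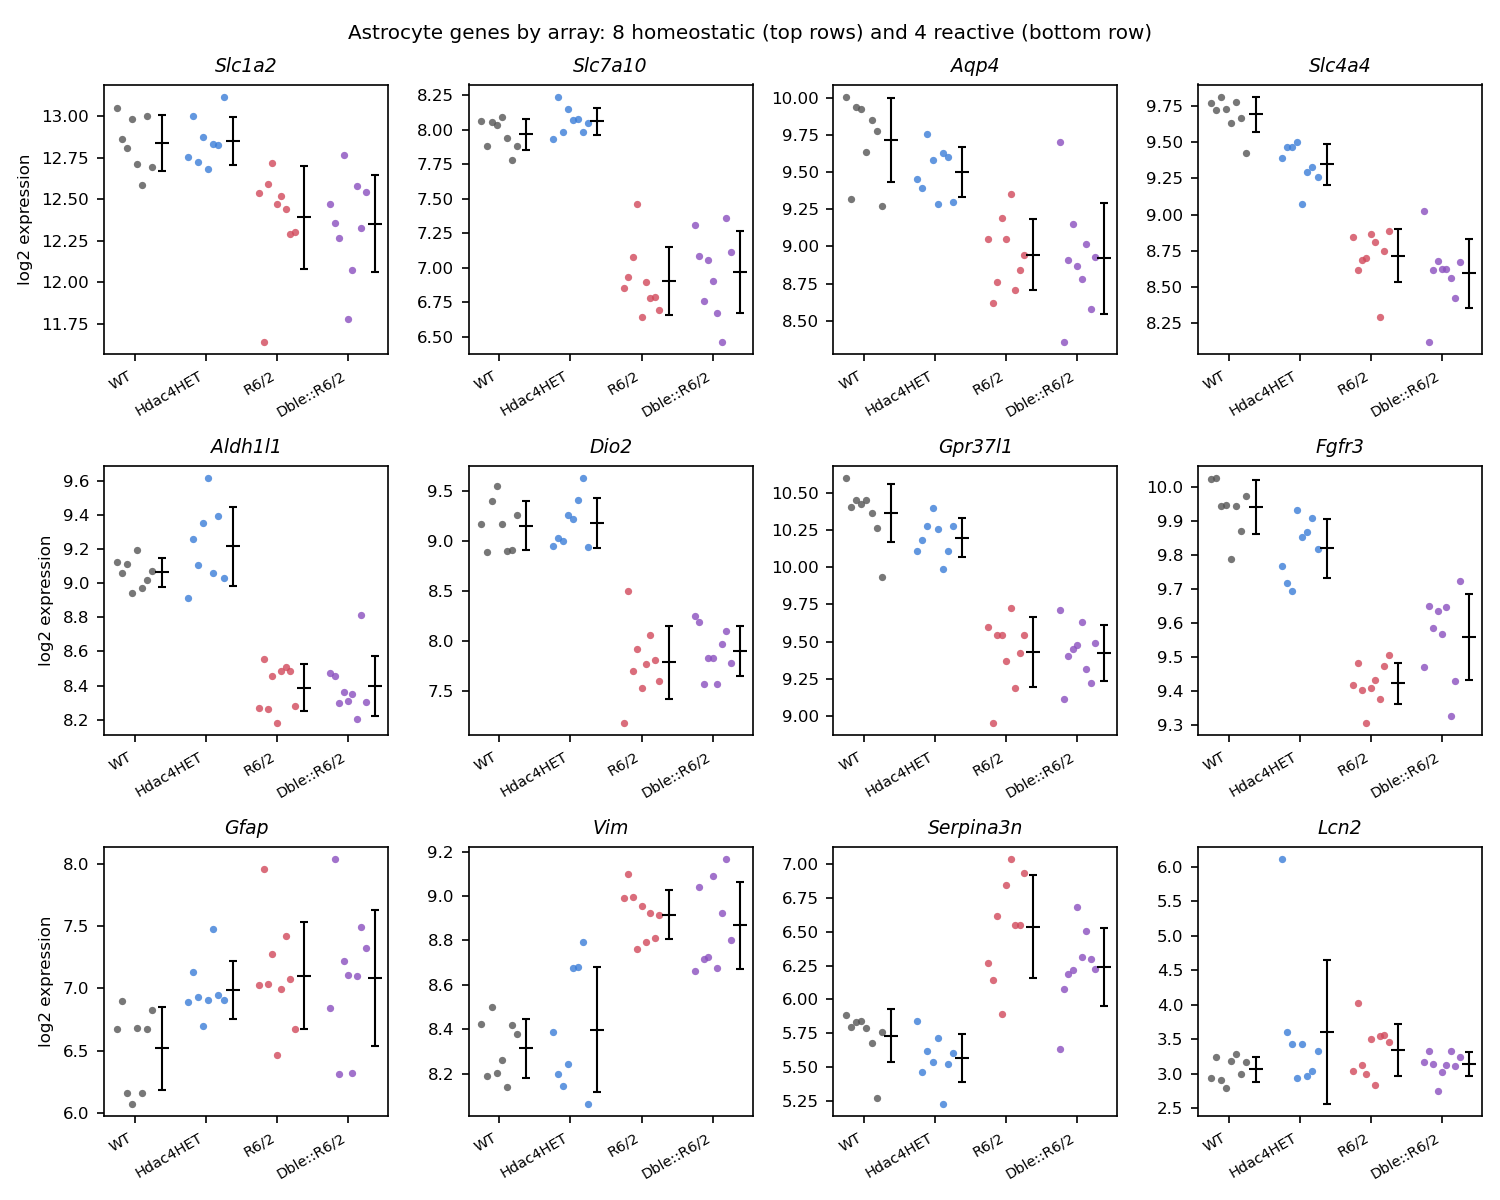
Log2 expression (y axis) of 8 homeostatic and 4 reactive astrocyte genes on each of the 34 arrays, by genotype (x axis), with the mean and SD of each genotype in black. The 18 arrays with the transgene lie below the 16 without it on Slc7a10, Slc4a4, Aldh1l1, Dio2 and Gpr37l1, and the single high point of Lcn2 is Hdac4HET replicate 1 at 6.12.

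Without the 4 arrays high in Prl, 25 of the 33 genes were called in R6/2 against WT, without R6/2 replicate 2 and without R6/2 replicate 3, the array high in choroid plexus markers, also 25 each, and without the 15 arrays whose Xist went against the label 21, of which 18 homeostatic genes fell and Cbs, Vim and Serpina3n rose. That last exclusion left 3 WT and 8 R6/2 arrays and lost Glul, Sox9 and Gfap. When each array was left out in turn, the count ranged from 22 to 25. Over all 45037 probe sets, 12127 were called with all arrays and 8040 without the arrays high in Prl. Without R6/2 replicate 2 they were 12721 and without R6/2 replicate 3 11377. Without the arrays whose Xist went against the label they were 8159.

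Markers of other cell types were read in the same comparison, where 20.2% of all genes were called higher and 11.8% lower. Of neuron markers 8 of 10 fell, with a summed log2 level between 15.45 and 15.58 in WT and between 15.14 and 15.36 in R6/2. Microglia markers fell in 6 of 11 (summed level 11.87 to 12.39 in WT and 11.52 to 11.99 in R6/2) and oligodendrocyte markers in 4 of 8 (13.97 to 14.79 and 14.18 to 14.43). Of endothelial and mural markers 2 of 9 rose and 0 fell (10.97 to 11.49 and 11.20 to 11.44), and of choroid plexus markers 3 of 6 rose (8.82 to 11.28 and 9.96 to 13.02). Of oligodendrocyte precursor markers 2 of 5 fell, of ependymal markers 0 of 4 were called, of meningeal and fibroblast markers 1 of 6 rose and 1 fell, of pituitary markers 3 of 6 fell, and of epidermal markers 1 of 8 rose. No marker was listed at 0, and the part of these cell types in the astrocyte changes was not tested.

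The same question was asked on the Hdac4HET background, on other arrays, by comparing Dble::R6/2 with Hdac4HET. Of the 29 homeostatic genes 18 fell, 1 rose (Bmpr1b) and 10 were not called, with a median log2 change of -0.35. Of the 4 reactive genes 2 rose, Vim and Serpina3n, while Gfap and Lcn2 were not called. In this comparison 23.1% of probe sets were called, and per gene 18.3% were higher and 11.7% lower. On 11 homeostatic genes no Dble::R6/2 array reached the Hdac4HET range, against 4.36% of all genes that fell without overlap, and 0 reactive genes rose without overlap, against 4.41% of all genes.

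The falls were again led by Dio2 at -1.28 ± 0.11 (SE, adjusted p = 1.01e-07) and Slc7a10 at -1.09 ± 0.10 (adjusted p = 2.72e-07). Aldh1l1 fell by 0.82, Gpr37l1 by 0.77, Slc4a4 by 0.75, Slc6a11 by 0.70, Ntsr2 by 0.62 and Aqp4 by 0.58. Gja1, just outside the threshold in R6/2 against WT, fell by 0.33 ± 0.06 here (SE, adjusted p = 4.65e-04), from 11.85 ± 0.08 (SD, n = 8) to 11.52 ± 0.13 (SD, n = 9). Gjb6 differed by 0.08 (95% interval -0.20 to 0.36, adjusted p = 0.762).

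Serpina3n rose by 0.67 ± 0.11 (SE, adjusted p = 1.53e-04) and Vim by 0.47 ± 0.11 (adjusted p = 0.0031), with 1 and 4 Dble::R6/2 arrays within the Hdac4HET range, respectively. Gfap differed by 0.10 (95% interval -0.29 to 0.49) and Lcn2 by -0.47 (-1.13 to 0.18), which was -0.11 without Hdac4HET replicate 1. Bmpr1b rose by 0.36 (adjusted p = 0.0292) although all 9 Dble::R6/2 arrays lay within the Hdac4HET range, and this call was lost when any 1 of 5 of the 17 arrays was left out.

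Both comparisons called 17 homeostatic genes lower and Vim and Serpina3n higher. Slc1a3, Glul, Cbs, Slc39a12 and Gfap were called in R6/2 against WT alone, Gja1 and Bmpr1b in Dble::R6/2 against Hdac4HET alone, and 7 genes in neither (Gjb6, S100b, Id3, Htra1, Clu, Agt and Lcn2). These counts use the brightest probe set. On further probe sets Slc1a3 (-0.73 and -0.46), Glul (-1.10 and -0.51), S100b (-0.33 and -0.31), Gja1 (-0.66 and -0.45) and Clu (-0.27 and -0.18) were called lower in both comparisons. So was Slc39a12 (-0.62 and -0.27), on a probe set with a low mean of 3.20 over all arrays. The test of whether these effects differed is the interaction. In Dble::R6/2 against Hdac4HET 8 of 10 neuron markers, 9 of 11 microglia markers and 3 of 9 endothelial and mural markers fell as well. Of all genes 11.7% were called lower there, and the part of these cell types was not tested. Choroid plexus markers were higher in Dble::R6/2 in 6 of 6, none called, with a median of 0.56 against Hdac4HET and 0.36 against R6/2 and a summed level from 8.89 on replicate 3 to 13.98 on replicate 8. Without the arrays high in these markers, which left 7 Hdac4HET and 4 Dble::R6/2 arrays, 18 astrocyte genes were called, with Aqp4 at -0.40 (adjusted p = 0.108), Vim at 0.35 (adjusted p = 0.143) and Bmpr1b at 0.37 (adjusted p = 0.141) no longer among them. Gfap then read -0.36 (adjusted p = 0.197) in place of 0.10. Without the arrays high in Prl 20 of the 33 genes were called in Dble::R6/2 against Hdac4HET, and without those whose Xist went against the label, which left 3 Hdac4HET and 5 Dble::R6/2 arrays, 12 were called. The 9 calls lost were Slc1a2, Slc25a18, Aqp4, Gja1, Ppp1r3c, Fgfr3, Bmpr1b, Sox9 and Serpina3n. Over all 45037 probe sets, 10422 were called with all arrays and 6249 without the arrays high in choroid plexus markers. Without the arrays high in Prl they were 9836, and without those whose Xist went against the label 3687.

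**Figure D3:**
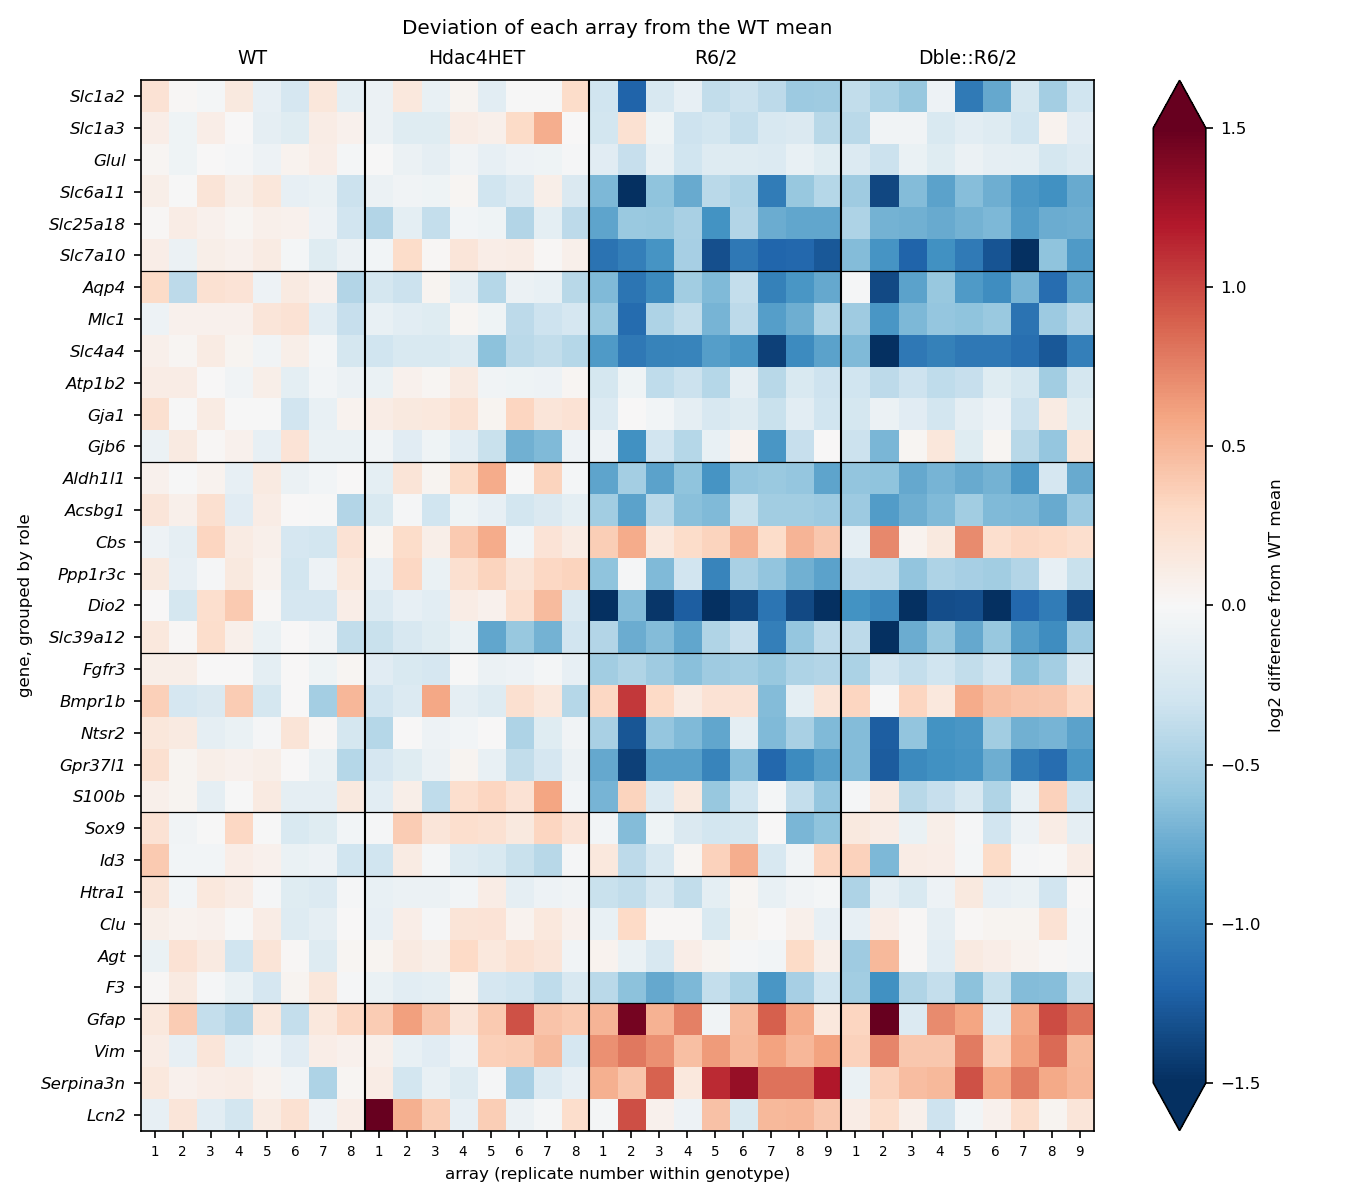
Deviation of each of the 34 arrays (columns, by genotype and replicate number) from the WT mean of each astrocyte gene (rows, by role), as a log2 difference. Colours end at -1.5 and 1.5, blue is lower and red higher, and the R6/2 and Dble::R6/2 columns are blue on most homeostatic rows and red on Vim and, except Dble::R6/2 replicate 1, on Serpina3n, with Clu and Agt pale on most arrays.

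Read array by array, low levels of homeostatic genes were found on every array with the transgene. On each R6/2 array between 16 and 22 of the 29 homeostatic genes lay below every WT array, with a median of 21, and replicate 6 had the fewest. Over all 18193 genes the share below every WT array was between 14.2% and 22.9% per R6/2 array, between 13.6% and 24.5% per Dble::R6/2 array and between 7.21% and 22.7% per Hdac4HET array. Each Dble::R6/2 array had between 19 and 21 such genes (median 20), and each Hdac4HET array between 1 and 8 (median 4.5). All 9 R6/2 arrays and 6 of the 9 Dble::R6/2 arrays had 3 or more of the 4 reactive genes above every WT array. The share of all genes above every WT array was between 21.7% and 39.4% in R6/2 and between 17% and 32.9% in Dble::R6/2. On R6/2 replicates 5 and 9 this count included Lcn2, which is dim and was not called, while Gfap lay within the WT range. Hdac4HET arrays had between 0 and 3 such reactive genes, and 1 of the 8 had 3. There the share of all genes was between 7.84% and 20.4%. The mean log2 level of the 29 homeostatic genes lay between 9.45 and 9.66 in WT, 9.39 and 9.60 in Hdac4HET, 8.97 and 9.24 in R6/2 and 8.99 and 9.19 in Dble::R6/2, so that the arrays with and without the transgene did not overlap. For the 4 reactive genes the ranges were 5.73 to 6.03 in WT, 5.86 to 6.81 in Hdac4HET, 6.23 to 6.81 in R6/2 and 6.08 to 6.62 in Dble::R6/2. The high Hdac4HET end was replicate 1, the array with high Lcn2. Within a genotype, the SD of a gene had a median of 0.16 in WT, 0.17 in Hdac4HET, 0.23 in R6/2 and 0.19 in Dble::R6/2.

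Next, the loss of 1 Hdac4 allele was compared without the transgene, in Hdac4HET against WT. Here 2 of the 33 genes were called, both homeostatic and both lower. Slc4a4 fell by 0.35 ± 0.07 (SE, adjusted p = 0.022) and Slc39a12 by 0.40 ± 0.10 (adjusted p = 0.0424), with 3 and 5 of the 8 Hdac4HET arrays within the WT range. In all, 3.91% of probe sets were called, and per gene 1.46% were higher and 1.71% lower. The median change of the 33 genes was -0.04. Gfap was just outside the threshold at 0.47 ± 0.13 (SE, adjusted p = 0.0503), with 2 Hdac4HET arrays within the WT range, and its other 2 probe sets read 0.10 and -0.33.

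These 2 calls did not hold across settings. Neither gene was called without the arrays high in Prl (adjusted p = 0.204 for Slc4a4 and 0.228 for Slc39a12) or without those whose Xist went against the label (0.351 and 0.361). The call of Slc39a12 was lost when any 1 of 12 of the 16 arrays was left out, and that of Slc4a4 without Hdac4HET replicate 6. Over the mean of its 5 probe sets Slc4a4 differed by 0.10 in the other direction (adjusted p = 0.577).

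The cross was made to learn whether less Hdac4 alters the disease process in R6/2 mice, and the arrays address its effect on transcript levels. In Dble::R6/2 against R6/2 none of the 33 astrocyte genes was called by limma, and none by the methods' t-test. At an unadjusted p under 0.05 there were 2 genes, Fgfr3 at 0.14 and Sox9 at 0.29, where 6.44% of all genes passed that mark. Of all probe sets 0.00666% were called. The median change of the 33 genes was -0.01, and single genes ranged from -0.30 (Serpina3n) to 0.29 (Sox9).

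The intervals set how large a difference these arrays leave possible. For Dio2 the 95% interval was -0.17 to 0.40, for Slc7a10 -0.19 to 0.32, for Slc1a2 -0.32 to 0.24, for Aqp4 -0.31 to 0.26 and for Slc4a4 -0.32 to 0.08. Each of these excludes a rise as large as the fall between WT and R6/2. That is not the case for every gene that fell. Sox9 differed by 0.29 here (adjusted p = 0.789), against a fall of 0.31 between WT and R6/2. For Serpina3n the interval was -0.61 to 0.01, for Vim -0.21 to 0.11 and for Gfap -0.46 to 0.42, so for Gfap a fall of up to 0.46 remains within the interval, against a rise of 0.58 between WT and R6/2. Serpina3n in the 2 groups overlapped on 8 of 9 arrays. The count stayed at 0 when any single array was left out, without the arrays whose Xist went against the label, and without those high in choroid plexus markers, where Gfap read -0.47 (adjusted p = 0.998).

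**Figure D4:**
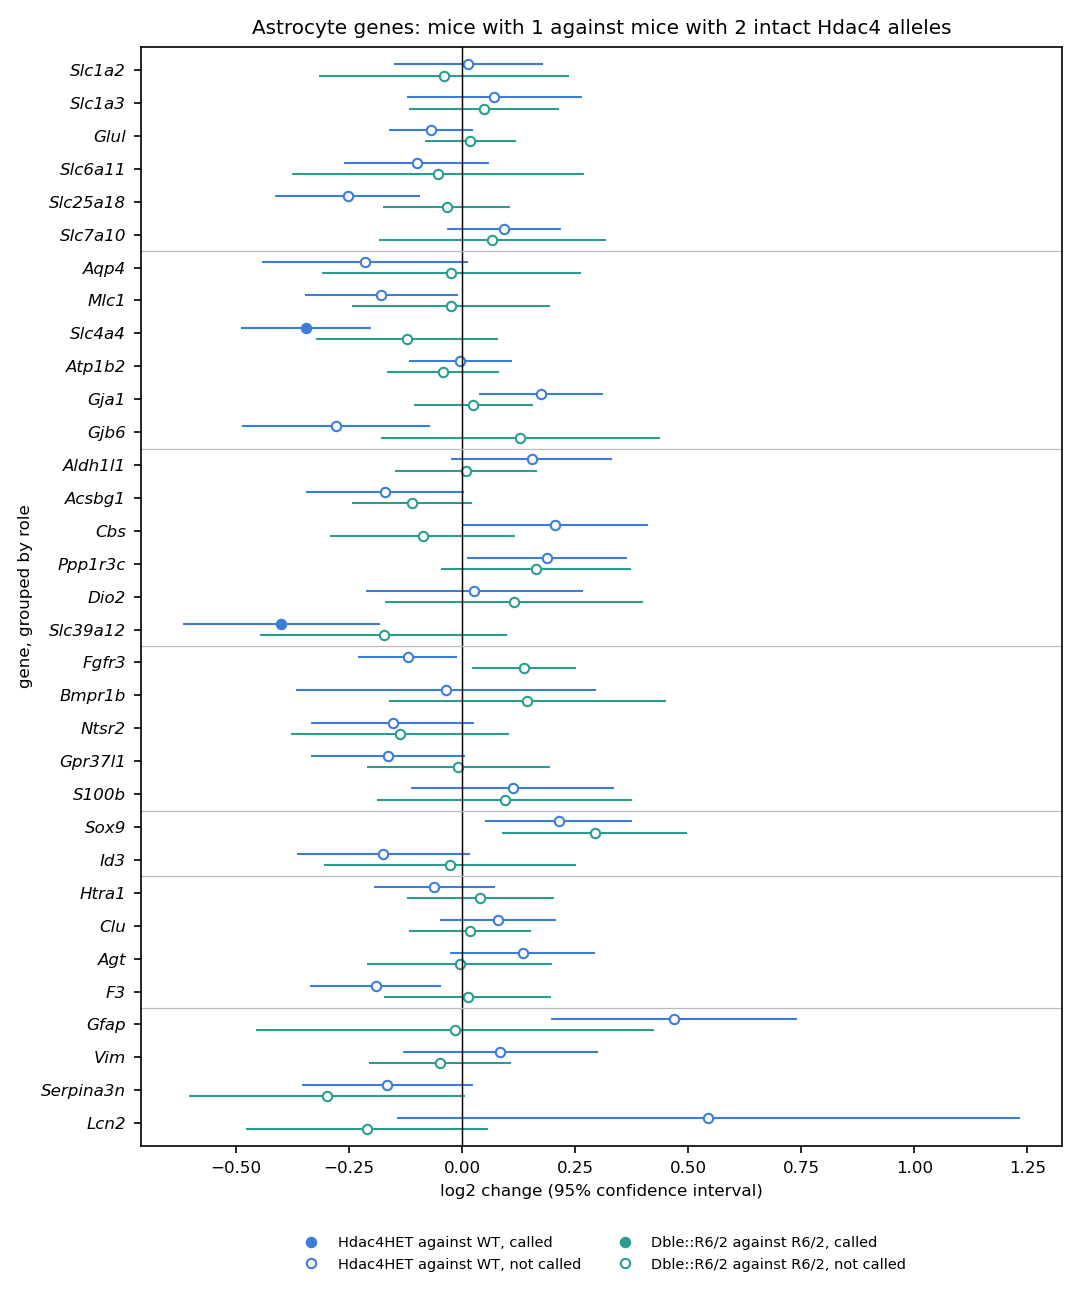
Log2 change of the 33 astrocyte genes (x axis) with 95% confidence intervals, for Hdac4HET against WT (blue, n = 8 each) and Dble::R6/2 against R6/2 (green, n = 9 each). Filled points were called, which was the case for Slc4a4 and Slc39a12 in Hdac4HET against WT and for no gene in Dble::R6/2 against R6/2.

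The interaction tests whether the effect of the transgene differed with the Hdac4 allele, in a fit of all 4 genotypes. No astrocyte gene was called, by limma, and 0.00222% of all probe sets were. At an unadjusted p under 0.05 there were 5 genes, Slc25a18 (0.22), Gjb6 (0.41), Fgfr3 (0.26), Cbs (-0.29) and Lcn2 (-0.76), where 8.36% of all genes passed that mark. The Lcn2 value was -0.40 without Hdac4HET replicate 1. A positive value means that Dble::R6/2 minus Hdac4HET was higher than R6/2 minus WT. For Gfap the interaction was -0.48 (95% interval -1.03 to 0.06, adjusted p = 0.558), and for Dio2 0.09 (-0.29 to 0.47). The genes called in one transgene comparison alone were thus not shown to respond differently.

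Of the 33 genes 21 had more than 1 probe set, 43 further probe sets in all. In R6/2 against WT 36 of the 43 had the sign of the brightest, 21 were called lower and 2 higher. Of the 31 that belong to a called gene, 18 were called the same way and 0 the opposite way. The 3 probe sets of Dio2 fell by 1.37, 1.56 and 1.42 and the 3 of Vim rose by 0.60, 0.25 and 0.50.

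On several genes a dimmer probe set fell further than the brightest. A dimmer probe set of Slc1a3 read -1.62, of Gja1 -1.63, of Aqp4 -1.35 and of Ppp1r3c -1.34, each called in R6/2 against WT. Those of Fgfr3 (-1.15), Glul (-1.10) and Atp1b2 (-0.85) were called as well. On the dimmer probe sets of Gja1, Slc1a3, Ppp1r3c and Atp1b2 Hdac4HET was also called lower than WT, by -1.05, -0.77, -0.67 and -0.57 (adjusted p = 0.0338, 0.0293, 0.0345 and 0.0371), although their brightest probe sets were not called there. That Slc1a3 probe set read 8.41, 9.47 and 9.74 in WT, 7.97, 8.67 and 8.90 in Hdac4HET, 5.68, 7.91 and 8.46 in R6/2 and 6.94, 7.95 and 9.07 in Dble::R6/2. None of these 4 was called in Hdac4HET against WT without the arrays high in Prl. The brightest probe sets of Slc1a3, Gja1, Clu, Vim, Gfap and Cbs are of the kinds whose probes can also match other transcripts, as their identifiers mark. Which transcript ends each probe set reads is not given in the sources used here.

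**Figure D5:**
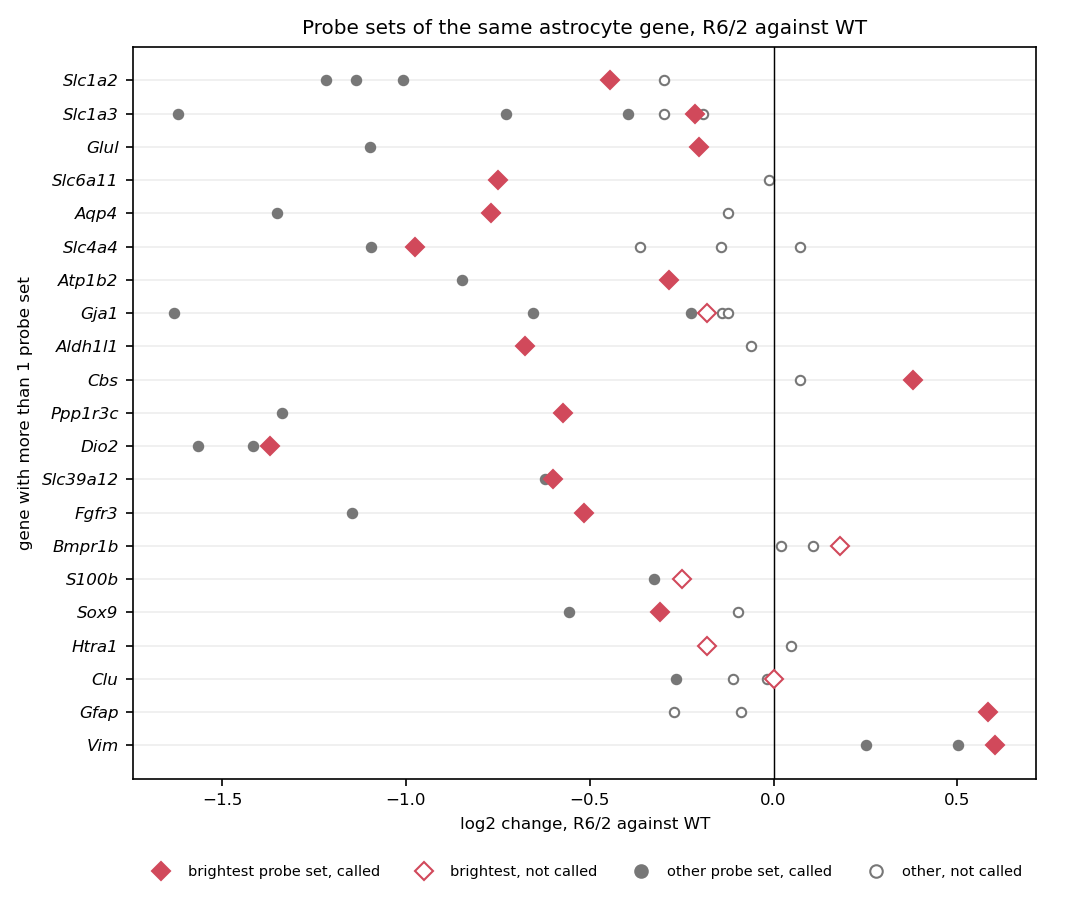
Log2 change in R6/2 against WT (x axis) of every probe set of the 21 astrocyte genes that have more than 1 (rows), with the brightest as a red diamond and the others as grey circles, filled where called. The 3 Dio2 and 3 Vim probe sets stand on 1 side of 0, while those of Gfap stand at 0.58, -0.09 and -0.27.

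Other astrocyte genes, from a list of 47, moved as the homeostatic genes did in direction but with a smaller median. In R6/2 against WT 24 fell, 3 rose and 20 were not called, with a median of -0.24, where 11.8% of all genes were called lower and 20.2% higher. The largest of these changes were falls of Axl (-1.25), a receptor kinase for dying cells, Ednrb (-1.19), an endothelin receptor, Cldn10 (-1.09), a claudin, and Tril (-1.02), a partner of Toll-like receptors. Kcnj10, the potassium channel Kir4.1, fell by 0.59 (adjusted p = 5.69e-04). In Dble::R6/2 against Hdac4HET 24 of the 47 fell and 2 rose (11.7% and 18.3% of all genes). In Hdac4HET against WT 4 fell and 0 rose (1.71% and 1.46% of all genes). In Dble::R6/2 against R6/2 none was called. There 5 of the 47 had an unadjusted p under 0.05 by limma, as did 6.44% of all genes.

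Of further reactive genes some were called higher, in 2 of the 3 lists at about the share of all genes (20.2%). Of 13 measured genes shared by reactive states 4 rose and 0 fell in R6/2 against WT: the oncostatin M receptor Osmr (0.87), the sphingosine phosphate receptor S1pr3 (0.72), ceruloplasmin Cp (0.66) and the small heat shock protein Hspb1 (0.52). The other 9 were not called, among them Stat3 (0.14), Cd44 (-0.23), Nes (-0.20), Timp1 (-0.03) and Socs3 (0.00). Of 9 genes of the inflammation type, called A1, the complement inhibitor Serping1 (0.82) and Fkbp5 (0.78), which glucocorticoids induce, rose and 0 fell. Of 12 genes of the injury type, called A2, S100a10 (0.58) and Cd109 (0.49) rose and Ptgs2 (-1.06), cyclooxygenase 2, which cortical neurons also make, fell. The median change was 0.08, 0.13 and 0.04 in the 3 lists. In Dble::R6/2 against Hdac4HET 5 of the 13 shared genes rose and 2 fell, 4 of the 9 A1 genes rose and 0 fell, and 2 of the 12 A2 genes rose and 1 fell, where 18.3% of all genes were called higher and 11.7% lower. In Dble::R6/2 against R6/2 none of these genes was called, with 2, 0 and 0 at an unadjusted p under 0.05, where 6.44% of all genes passed that mark.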

How the data were processed

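Total RNA of cortex was hybridised by the authors to Affymetrix mouse genome arrays. The deposited values are log2 expression levels, normalized by the authors by a method not given in the sources used here, and arrays that failed the authors' quality control had been excluded. Array medians lay between 5.44 and 5.52. Genes were named from the platform annotation (34945 probe sets with 1 symbol, 932 with several, 9160 with none), and 34741 probe sets matched a gene of the RefSeq table.

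Pairs of genotypes, and the interaction over all 4, were fitted with limma 3.58.1 in R 4.3.3, without covariates. P-values measure the spread between arrays of a genotype as labelled. All 33 genes are named, and of every other list up to 4 called genes with the largest change in R6/2 against WT, plus Kcnj10; the uncalled genes Stat3, Cd44, Nes, Timp1 and Socs3 were picked with their values in view. The genes and lists were chosen with earlier results of these data known. Listed genes without a probe set of their own, such as C3, H2-T23, Ggta1 and Ly6c1, were not analysed here. The fit was tested on simulated data. Alternatives were quantile normalization, array weights, only probe sets above the median level, robust and trended eBayes, labelled sex or sex by Xist in the model, the replicate number as a block, 1 fit for all genotypes, gene means over their probe sets, the methods' t-test, and exclusions of arrays. The exclusions by Xist and by choroid plexus markers (summed log2 level above 12) were added after the data had been seen. Figures were drawn with matplotlib 3.10.9 in Python 3.11.15.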

Additional observations from a re-analysis of the deposited data

Results flagged for a closer look

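On 13 of 132 combinations of gene and genotype 1 array stood outside the others by Dixon's criterion, which chance gives in about 1 of 20. R6/2 replicate 2 was low on Slc1a2 (11.64) and Slc6a11 (7.03), and Dble::R6/2 replicate 2 was low on Slc6a11 (7.48), Slc39a12 (7.21) and Id3 (7.32). WT replicate 8 was the low WT array on Slc25a18 (9.29) and Slc4a4 (9.43), and WT replicate 7 on Serpina3n (5.27). R6/2 replicate 7 was low on Slc4a4 (8.29). Standing high were Dble::R6/2 replicate 1 on Slc25a18 (9.12), Dble::R6/2 replicate 8 on Aldh1l1 (8.81), Hdac4HET replicate 5 on Htra1 (10.85) and Hdac4HET replicate 1 on Lcn2 (6.12). The causes were not tested.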

How the results depend on the processing

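Directions of called genes were kept in R6/2 against WT and in Dble::R6/2 against Hdac4HET under every alternative run. The 1 reversal was Slc4a4 in Hdac4HET against WT, at 0.10 (adjusted p = 0.577) over the mean of its probe sets. In Hdac4HET against WT the 2 called astrocyte genes became 4 with only the probe sets above the median level, with array weights and with sex from the labels as a covariate. The genes gained in these settings were Slc25a18, lower, and Gfap, higher. With robust and trended eBayes 3 were called, and the gene gained was Gfap. The count was 1 with all 4 genotypes in a single fit, with the methods' t-test and over the mean of all probe sets. It was 0 with Xist in place of the labelled sex, without the arrays high in Prl, and without the arrays whose Xist goes against the labelled sex. Leaving out each array in turn gave 0 (without Hdac4HET replicate 6) to 6 (without WT replicate 8). In Dble::R6/2 against Hdac4HET the exclusion by Xist gave 12 called genes, 11 homeostatic lower and 1 reactive higher, and without the arrays high in choroid plexus markers 18 were called, of which 1 reactive gene was higher. These exclusions leave 8 and 11 of 17 arrays, and the cause of the lower counts was not tested. Leaving out single arrays gave 22 to 25 called genes in R6/2 against WT, 20 to 22 in Dble::R6/2 against Hdac4HET, and 0 in Dble::R6/2 against R6/2 and for the interaction. Over all probe sets, the 1760 calls of Hdac4HET against WT became 3305 with labelled sex in the model, 877 with the replicate block, 704 in the single fit, 173 by the methods' t-test, 22 with Xist in the model, 26 without the arrays whose Xist goes against the label and 5 without those high in Prl. The 10422 calls of Dble::R6/2 against Hdac4HET became 3687 under the exclusion by Xist and 6249 under that by choroid plexus markers, and the 12127 of R6/2 against WT became 8040 without the arrays high in Prl.

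Deviations of same-numbered arrays of the 2 genotypes compared correlated weakly, from -0.09 to 0.14 in R6/2 against WT and from -0.19 to 0.31 over all pairs. In Dble::R6/2 against R6/2 5 of 9 such correlations were above 0.1. An array correlated best with the one of its own number in at most 1 case per comparison. No pairing by replicate number was used, although these correlations cannot exclude one. With the replicate number as a block 23 astrocyte genes were called in R6/2 against WT, 2 in Hdac4HET against WT, 0 in Dble::R6/2 against R6/2, 20 in Dble::R6/2 against Hdac4HET and 0 for the interaction.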
